A study of Mus musculus with 6 samples.

Results

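The mitochondrial ribosome is represented in the epididymal fat data by 78 protein-coding genes of 54532 listed genes. They are the protein-coding genes of GENCODE release M21 whose symbol starts with Mrpl or Mrps followed by a digit. Of these, 49 are named for the large subunit (Mrpl) and 29 for the small subunit (Mrps). RNA-Seq was done on the epididymal fat, the visceral depot beside the epididymis, of male C57BL/6J mice fed a normal diet (ND, 4.5% fat) or a high-fat diet (HFD, D12492, 60% fat). The diets started at 4 weeks of age and ran for 16 weeks, so all mice were 20 weeks old, and the labels mark every sample of both diets as untreated. Each diet had 3 libraries, and neither the labels nor the methods say whether a library holds 1 mouse or several, so that p-values measure the spread between these libraries only.

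Mitochondria translate the few messages of their own genome, all of which encode subunits of the respiratory chain and the ATP synthase, on ribosomes of their own. The RNA of these ribosomes is encoded by the mitochondrial genome, whereas every protein of them is encoded in the nucleus, made in the cytosol and imported. The small subunit reads the message and the large subunit joins the amino acids. Some proteins descend from those of the bacterial ribosome, and others were gained in the mitochondrial lineage. White adipocytes depend on mitochondria for fatty acid synthesis and for oxidation, and the nuclear factors NRF1, GABP (an ETS protein) and YY1, with the coactivator PGC-1α, are known to drive many nuclear genes of mitochondria.

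Promoter sequence was read for the members because these factors act there. A window of 300 bases, 250 before and 50 after the start, was found in the RefSeq table of build GRCm38.p6 for 69 of the 78 genes. The first 3 lines give the 250 bases before the start, in transcript direction, of 3 genes that fell on HFD. Capitals mark the NRF1 palindrome, which of these 3 lines the Mrpl9 line alone holds.
Mrps16 (chr14:20393635-20393884, minus strand): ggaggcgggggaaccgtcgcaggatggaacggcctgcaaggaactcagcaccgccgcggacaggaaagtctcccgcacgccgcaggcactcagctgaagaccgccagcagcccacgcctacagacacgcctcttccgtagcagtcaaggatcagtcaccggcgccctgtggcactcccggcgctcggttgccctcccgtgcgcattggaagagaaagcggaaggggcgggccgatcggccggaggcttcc
Mrps15 (chr4:126046678-126046927, plus strand): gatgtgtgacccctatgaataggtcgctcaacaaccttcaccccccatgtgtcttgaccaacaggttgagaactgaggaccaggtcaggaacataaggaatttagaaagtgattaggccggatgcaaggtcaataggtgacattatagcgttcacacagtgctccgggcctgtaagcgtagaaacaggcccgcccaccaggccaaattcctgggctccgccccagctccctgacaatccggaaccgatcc
Mrpl9 (chr3:94443086-94443335, plus strand): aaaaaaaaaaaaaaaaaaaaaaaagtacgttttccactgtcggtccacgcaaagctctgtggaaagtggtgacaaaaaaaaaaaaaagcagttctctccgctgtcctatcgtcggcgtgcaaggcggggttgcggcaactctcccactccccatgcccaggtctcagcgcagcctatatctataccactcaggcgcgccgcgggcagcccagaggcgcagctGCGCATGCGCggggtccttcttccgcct
The next lines show short sites, with the motif in capitals and 9 bases on either side. The NRF1 palindrome stood 28 bases before the start in Mrpl9, 87 in Mrpl32 and 125 in Mrpl39.
Mrpl9 (chr3:94443299-94443326, plus strand): ggcgcagctGCGCATGCGCggggtcctt
Mrpl32 (chr13:14613106-14613133, minus strand): ttgacccttGCGCATGCGCaagaggggc
Mrpl39 (chr16:84735351-84735378, minus strand): aggagaggcGCGCATGCGCccccgcgtg
The ETS word CCGGAAGT, read as ACTTCCGG on the other strand, is shown for the 2 members that fell on HFD and hold it, Mrpl51 and Mrps26. It is also shown for Mrpl27, which is among the 5 with the highest levels per length (FPKM).
Mrpl51 (chr6:125192101-125192126, plus strand): ggggctaaaCCGGAAGTatttgactg
Mrps26 (chr2:130563733-130563758, plus strand): tccgcggccACTTCCGGgccgggcgc
Mrpl27 (chr11:94653727-94653752, plus strand): ccgcaagacCCGGAAGTagatctatc
The YY1 word, whose core is AAGATGG, is shown for Mrps18a and for Mrps11, which carries it on the other strand.
Mrps18a (chr17:46111006-46111034, plus strand): gtgcgttccAAGATGGCGGCcctcagggc
Mrps11 (chr7:78783012-78783040, plus strand): cctacgggcGCCGCCATCTTtctgtcttc

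Most transcripts of the mitochondrial ribosome had a somewhat lower level on HFD, few of them past the test. Of the 77 genes with enough counts to be tested, 70 had a negative log2 fold change (HFD against ND), which is 90.9% of them, whereas 49.5% of all 15751 genes tested were negative. The median log2 fold change was -0.26, a level 16.5% lower, beside 0.0074 over all genes. In 37 of the 77 genes (48.1%) every HFD library was below every ND library in CPM (the count scaled to library size with TMM factors), and this was so in 19.1% of all genes tested. The reverse order held for 1 member, Mrpl19, and for 21.7% of all genes.

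Few of these differences passed the test alone. By edgeR's quasi-likelihood test with Benjamini-Hochberg adjustment over all genes, 6 members fell on HFD at an adjusted p under 0.05. That is 7.79%, close to the 6.04% of all genes called lower, so by edgeR the number of calls does not set this family apart. No member rose by that test, where 9.85% of all genes were called higher, and none was higher at an unadjusted p under 0.05 or with DESeq2. At an unadjusted p under 0.05, 31 members (40.3%) were lower, and 15.3% of all genes were. DESeq2 called 12 members lower, and 8.81% of the genes it tested. The members were measured at mean levels from 12.4 to 94.8 CPM. Among all 7306 genes in that range 46.7% were negative, 19.4% had every HFD library below every ND library and 6.47% were called lower.

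**Figure D1:**
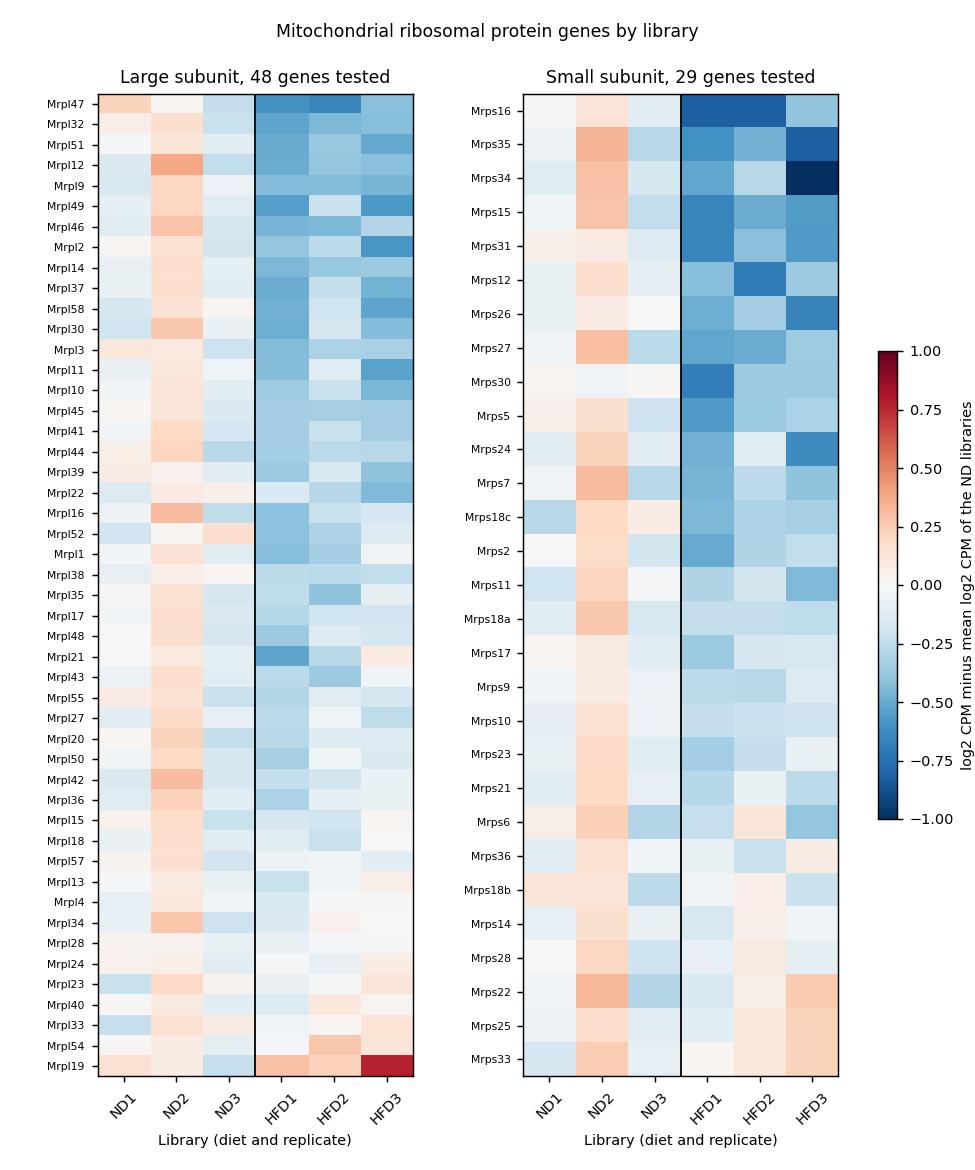
Heat map of the 77 tested genes (rows) in the 6 libraries (columns), coloured by log2 CPM minus the mean log2 CPM of the 3 ND libraries, with genes ordered within each subunit by log2 fold change. Blue fills most of the HFD columns, the second ND library is the highest of all libraries in 66 genes, and Mrpl19 at the foot of the large subunit is red in all 3 HFD libraries.

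Mrps16, a small subunit protein with a bacterial counterpart (ENSMUSG00000049960, chromosome 14 of GRCm38 from 20389304 to 20393634), had the most negative fold change. Its level was 46.6, 51.6 and 43.5 CPM in the ND libraries and 26.8, 26.7 and 35.9 CPM in the HFD libraries. The third HFD library lay between the other HFD libraries and the ND range, and the diets did not overlap. The log2 fold change was -0.67 ± 0.15 (SE, n = 3 per diet, adjusted p = 0.028 by edgeR), a level 36.9% lower.

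Mrps15 (chromosome 4, 126046925 to 126055532), which binds the small subunit rRNA, stood at 71.7, 90.3 and 62.5 CPM on ND against 46.8, 52.5 and 50.1 CPM on HFD. The ND libraries were spread more widely than the HFD libraries, and the diets did not overlap. The log2 fold change was -0.59 ± 0.15 (adjusted p = 0.042 by edgeR). Mrps31 (chromosome 8, 22411361 to 22429665), a protein specific to mitochondrial ribosomes, was at 27.4, 28.0 and 24.1 CPM on ND against 16.9, 19.8 and 17.9 CPM on HFD. All 3 HFD libraries were well under the ND range, with a log2 fold change of -0.54 ± 0.13 (adjusted p = 0.031 by edgeR). Mrps26 (chromosome 2, 130563742 to 130568695), also specific to mitochondria, was at 52.2, 58.2 and 54.8 CPM on ND against 39.2, 43.5 and 34.6 CPM on HFD, again without overlap, with a log2 fold change of -0.50 ± 0.12 (adjusted p = 0.036 by edgeR).

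Of the large subunit, Mrpl51 and Mrpl9 fell. Mrpl51 (chromosome 6, 125191801 to 125196269), specific to mitochondria and at the highest CPM of the 6, was at 104.4, 114.6 and 97.8 CPM on ND against 74.3, 81.1 and 74.0 CPM on HFD. Its log2 fold change was -0.47 ± 0.11 (adjusted p = 0.034 by edgeR). Mrpl9 (chromosome 3, 94443318 to 94451130), whose bacterial counterpart is L9, was at 50.6, 64.7 and 53.9 CPM on ND against 41.5, 41.5 and 40.6 CPM on HFD. Its HFD libraries were close to each other and lay below every ND library, with a log2 fold change of -0.45 ± 0.12 (adjusted p = 0.048 by edgeR). Leaving out a library ended most of these calls, since none of the 6 remained without the first or second ND library or without the first HFD library. Mrps16 was called in 10 of 12 other settings of the test and in 2 of the 6 fits that left out a library, Mrpl9 in 6 of 12 and in 0 of 6.

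Just outside the threshold were 5 members with adjusted p between 0.05 and 0.06, which are named here after their values were seen. Mrps35, a small subunit protein specific to mitochondria, had the second most negative fold change of all members at -0.65 ± 0.18 (adjusted p = 0.053 by edgeR), with 31.0, 40.9 and 26.6 CPM on ND against 21.2, 23.2 and 18.4 CPM on HFD. The others were Mrpl32 (-0.48, adjusted p = 0.051), Mrps12 (-0.50, 0.053), Mrpl14 (-0.40, 0.055) and Mrps30 (-0.47, 0.056), values from the same edgeR fit. In all 5 the HFD libraries were below all ND libraries.

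**Figure D2:**
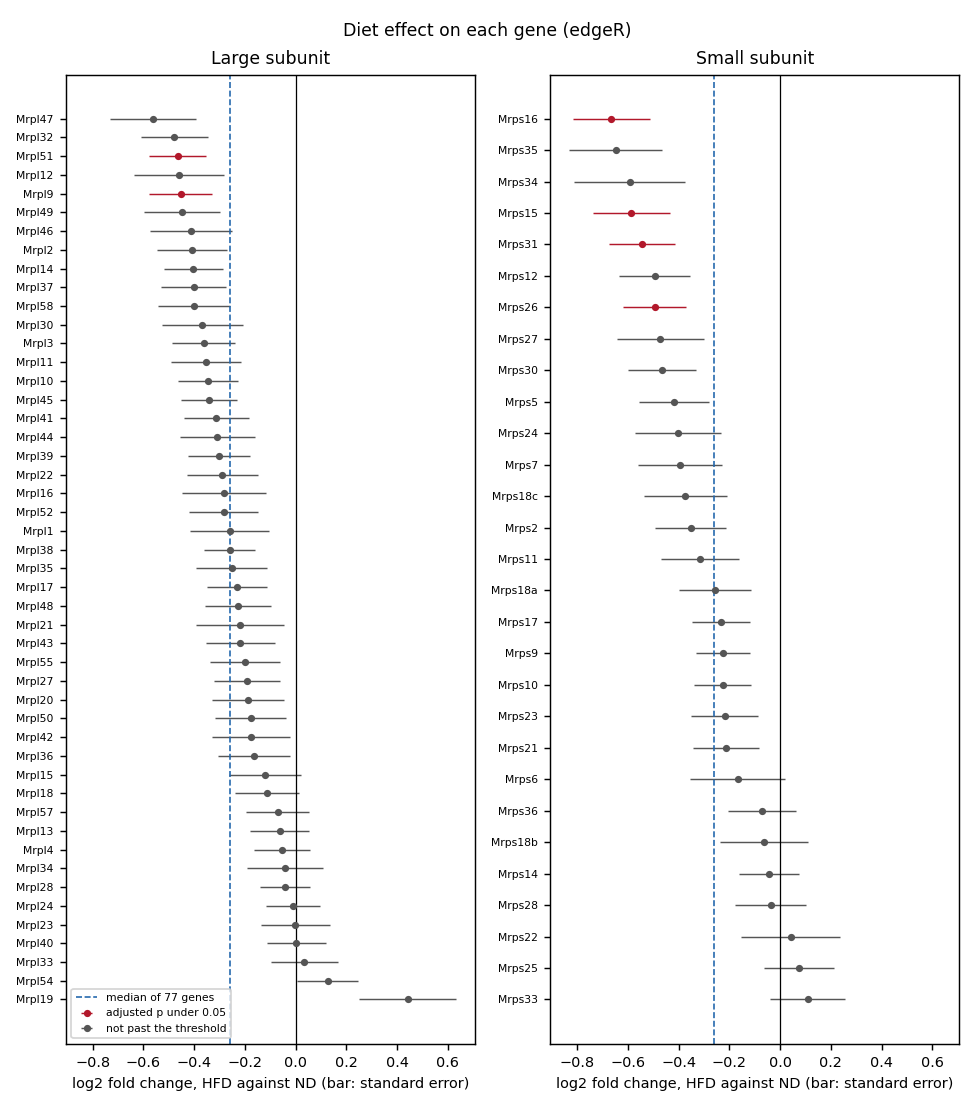
Log2 fold change of HFD against ND for each tested gene (points, with standard error bars; x axis, log2), large subunit on the left and small subunit on the right. Red points are the 6 genes with an adjusted p under 0.05 by edgeR, 70 of the 77 points lie left of 0 and the dashed line marks their median of -0.26.

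At the functional sites of the large subunit the values were uneven. The stalk, which recruits translation factors, is built on Mrpl10, Mrpl11 and Mrpl12, and their log2 fold changes were -0.35 ± 0.12, -0.35 ± 0.14 and -0.46 ± 0.18 (adjusted p = 0.086, 0.124 and 0.116 by edgeR). In each of the 3 the diets did not overlap, and Mrpl12 had 51.6, 74.6 and 48.2 CPM on ND against 40.5, 43.6 and 42.7 CPM on HFD. Without the second ND library its log2 fold change was -0.24. Of 4 proteins written down for the exit tunnel, through which the new protein leaves, Mrpl22 and Mrpl45 were at -0.29 ± 0.14 and -0.34 ± 0.11 (adjusted p = 0.189 and 0.075). Mrpl45, which holds the ribosome at the inner membrane, was at 44.5, 47.5 and 39.7 CPM on ND against 34.6, 34.8 and 34.5 CPM on HFD, so the HFD libraries hardly differed from each other and lay below the ND range. The other two of that list had values near 0, with Mrpl23 at -0.0014 ± 0.14 and Mrpl24 at -0.0097 ± 0.11, and the sign of both changed when single libraries were left out. Mrpl47, which also lies at the tunnel exit and was not on that list, was the most negative of the large subunit at -0.56 ± 0.17 (adjusted p = 0.062 by edgeR).

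In the central protuberance, which faces the small subunit, Mrpl38, Mrpl46 and Mrpl58 had log2 fold changes of -0.26 ± 0.10, -0.41 ± 0.16 and -0.40 ± 0.14 (adjusted p = 0.117, 0.119 and 0.095 by edgeR). Mrpl58, also a peptidyl-tRNA hydrolase that frees stalled chains, was at 32.98, 41.0 and 37.8 CPM on ND against 26.7, 32.4 and 25.7 CPM on HFD. Mrpl40 of the same region was at 37.0, 39.0 and 34.1 CPM on ND against 33.4, 39.5 and 37.4 CPM on HFD, which overlap, and its log2 fold change of 0.0033 ± 0.12 turned negative under other scalings (-0.019 with DESeq2's size factors). Mrps12, at the decoding centre of the small subunit, was at 32.1, 38.0 and 31.6 CPM on ND against 25.1, 20.7 and 26.2 CPM on HFD.

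The 3 paralogs of bacterial S18 differed in value. Mrps18a, placed in the large subunit by later structures, was at -0.26 ± 0.14, Mrps18b at -0.06 ± 0.17 and Mrps18c at -0.37 ± 0.16 (adjusted p = 0.240, 0.825 and 0.153 by edgeR). Mrps18c was at 14.9, 20.8 and 19.01 CPM on ND against 13.3, 14.6 and 14.4 CPM on HFD, and Mrps18b at 13.8, 13.8 and 10.5 CPM on ND against 12.3, 13.2 and 10.9 CPM on HFD. Only Mrps18b overlapped between the diets, and the difference between paralogs was not tested. Mrps36, now known as a part of the 2-oxoglutarate dehydrogenase complex rather than of the ribosome, was at 23.1, 27.8 and 24.2 CPM on ND against 23.7, 21.4 and 26.3 CPM on HFD, with a log2 fold change of -0.07 ± 0.14.

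The 7 members with a positive log2 fold change were led by Mrpl19, a large subunit protein with a bacterial counterpart (chromosome 6, 81957851 to 81965958). It was at 17.03, 16.1 and 13.02 CPM on ND against 18.8, 17.9 and 26.0 CPM on HFD. Every HFD library was above every ND library, the third far above the other HFD libraries. The log2 fold change of 0.44 ± 0.19 did not pass the test (adjusted p = 0.153 by edgeR), and it lay between 0.24 and 0.54 when single libraries were left out. The exons of Mrpl19 share 1962 bases with those of Gcfc2 on the opposite strand, itself at 0.34 ± 0.31 (adjusted p = 0.482), and the library kit does not mark strand. The next were Mrpl54 at 0.13 ± 0.12, Mrps33 at 0.11 ± 0.15, Mrps25 at 0.07 ± 0.14 and Mrps22 at 0.04 ± 0.20. In these 4 the diets overlapped.

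The remaining 43 tested members, not named by the rule for named genes, lay between -0.59 and 0.03 on the log2 scale. Of them 42 were negative, where 49.5% of all genes tested were. Every HFD library was below every ND library in 17 of the 43, a larger share than the 19.1% of all genes tested.

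The subunits differed little in their medians and more in their counts, and the difference was not tested. The median log2 fold change was -0.26 for 48 tested large subunit genes and -0.32 for 29 small subunit genes, with 2 (4.17%) and 4 (13.8%) called lower beside 6.04% of all genes. Every HFD library lay below every ND library in 20 large (41.7%) and 17 small subunit genes (58.6%), beside 19.1% of all genes. The ratio of the summed CPM of the large to the small subunit was 1.93, 1.87 and 1.96 on ND against 2.01, 1.97 and 2.05 on HFD, with every HFD library above every ND library. With Mrps18a and Mrps30 moved to the large subunit, the medians were -0.26 and -0.32. Classed by the number in the symbol, the 45 members with a bacterial counterpart had a median of -0.25 and the 32 other tested members of -0.29. In each class 3 were called lower (6.67% and 9.38%, beside 6.04% of all genes). Such numbering can misplace members, and Mrps36, not a part of the ribosome, is among the 32. Split by mean FPKM, the 39 members with the lower levels had a median of -0.26 and the 38 others of -0.24.

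Levels between genes were compared as FPKM, which is per length. Tested members ranged over 30.5-fold in FPKM and over 7.63-fold in CPM. All annotated exons together cover 739 bases in Mrps21, the highest by FPKM, and 8631 in Mrps35, the lowest. How far this annotated length sets the order was not tested. Mrps21 was the highest, with 103.8 ± 13.2 FPKM on ND and 88.7 ± 7.41 FPKM on HFD (SD, n = 3). Mrpl34 (68.8 ± 12.7 and 66.0 ± 4.52 FPKM), Mrpl54 (60.2 ± 4.13 and 65.1 ± 6.66), Mrpl27 (62.7 ± 7.86 and 54.3 ± 5.07) and Mrpl20 (61.7 ± 10.1 and 53.6 ± 3.05) followed, and these 4 lay within their spread of each other on ND. The median member had 16.5 FPKM over all libraries. The lowest tested members were Mrps35 (3.87 ± 0.887 FPKM on ND and 2.44 ± 0.286 on HFD), Mrpl47 (3.79 ± 0.631 and 2.54 ± 0.216) and Mrps30 (3.87 ± 0.0812 and 2.77 ± 0.348), which did not differ from each other beyond their spread.

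Mrpl53, the member that was not tested, had 0 counts in each of the 6 libraries, which allows at most 0.1497 to 0.1803 CPM at a floor of 3 counts and covers counting error only. Its exons share 695 bases with those of a gene model on the same strand, Gm42688, which had 7 to 16 counts per library. Whether reads that fit both were left out in the authors' counting was not tested. In all, 33 members share exon sequence with another gene, 8 of them on the same strand. The 45 members without such overlap had a median log2 fold change of -0.23, with 41 negative. In 21 of them (46.7%, beside 19.1% of all genes) every HFD library was below every ND library. Called lower were 3 (6.67%, beside 6.04% of all genes).

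Summed over the members, the level was 3261, 3810 and 3092 CPM in the ND libraries and 2678, 2946 and 2854 CPM in the HFD libraries. The sums did not overlap, with means of 3388 ± 376 and 2826 ± 136 CPM (SD, n = 3), 16.6% lower on HFD. The second ND library was the highest within its diet in 70 of 77 genes and the third the lowest in 56. Scaled by library size alone, the sums were closer together within a diet, at 3379 ± 120 and 2821 ± 54.0 CPM, so that 0.338% ± 0.0120 of all counts on ND and 0.282% ± 0.00540 on HFD fell on these genes. The large subunit went from 2225 ± 229 to 1886 ± 87.1 CPM and the small from 1163 ± 146 to 940 ± 51.4 CPM. The members varied less than other genes on HFD, with a median coefficient of variation of 8.37% where all genes had 18.1%, and on ND the values were 12.2% and 12.8%.

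Cell type markers differed between the diets as well. All 15 adipocyte markers of the labelled tissue were detected, and their summed level was 70075, 77467 and 60758 CPM on ND against 37133, 54456 and 24927 CPM on HFD, with 5 of 15 called lower and 1, Lep, called higher. The 15 macrophage markers summed to 2145, 2063 and 2049 CPM on ND against 5815, 4467 and 9816 CPM on HFD, with 11 of 15 called higher. Over all genes tested, 6.04% were called lower and 9.85% higher. Skeletal muscle markers, of which Acta1 and Myl1 passed the filter, summed to 58.6, 110.2 and 57.4 CPM on ND against 25.9, 36.3 and 19.1 CPM on HFD, with Acta1 called lower and the defining markers Ckm and Myh4 at 0 counts in every library. The second ND library was the highest in these and in the adipocyte markers, as it was in most members. The 6 endothelial markers all had negative values, with sums of 1274, 1097 and 959.3 CPM on ND against 1025, 1026 and 543.3 CPM on HFD and none called, and none of the T cell, B cell, fibroblast progenitor or mesothelial markers was called. The part of these cell types in the lower level of the mitochondrial ribosome was not tested, and in bulk tissue fewer cells of a type and less RNA per cell cannot be told apart. The third ND library stood apart in epithelial markers, which summed to 170 CPM there and to 8.68 to 12.4 CPM in the others. Without it 2 members were called lower and the median was -0.34.

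**Figure D3:**
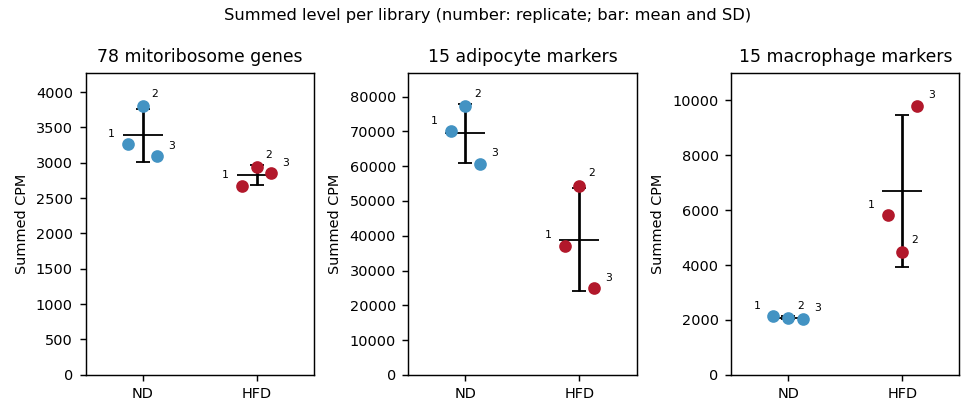
Summed CPM (y axes, from 0) in each library for the 78 members, 15 adipocyte markers and 15 macrophage markers by diet, with points numbered by replicate and bars for the mean and SD. Member and adipocyte sums are lower and macrophage sums higher in all 3 HFD libraries, and the second ND library is the highest in the first 2 panels.

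The other parts of the translation apparatus of mitochondria were read from lists of genes, whose difference from the members was not tested. The 5 proteins of the ribosome under other symbols were all negative, with a median log2 fold change of -0.27 and none called. Among them, Dap3, a GTP-binding protein of the small subunit, was at 55.7, 66.3 and 52.8 CPM on ND against 47.7, 51.9 and 45.3 CPM on HFD. All 16 translation factors were negative (median -0.23, none called), as were all 20 genes of the list of mitochondrial aminoacyl-tRNA synthetases (median -0.27). In that list Iars2, which charges the isoleucine tRNA, fell from 151.7, 158.3 and 136.0 to 102.5, 109.4 and 84.9 CPM (log2 fold change -0.59 ± 0.14, adjusted p = 0.031 by edgeR). Vars2, the valine enzyme, fell from 23.5, 19.7 and 22.3 to 15.3, 15.4 and 12.01 CPM (-0.61 ± 0.15, adjusted p = 0.037 by edgeR). Of 24 tested genes for assembly of the ribosome and modification of its RNA, 20 were negative (median -0.27). Called lower were 2 of them (8.33%, beside 6.04% of all genes). They were Ngrn, needed for the large subunit rRNA (-0.59 ± 0.13, adjusted p = 0.026 by edgeR), and Ybey, an RNA endonuclease (-0.86 ± 0.23, adjusted p = 0.047 by edgeR).

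Of 16 genes for upkeep and transcription of mitochondrial DNA, 15 were negative and 2 were called lower (12.5%, beside 6.04% of all genes). Hsd17b10, a dehydrogenase that is also a subunit of mitochondrial RNase P, fell from 129.2, 145.0 and 120.7 to 56.1, 72.4 and 48.1 CPM (-1.16 ± 0.17, adjusted p = 0.0096 by edgeR). Tfam, which packages mitochondrial DNA and starts its transcription, fell from 35.1, 37.0 and 36.3 to 24.6, 23.98 and 27.6 CPM (-0.51 ± 0.11, adjusted p = 0.025 by edgeR), and its ND libraries agreed closely.

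Among 9 regulators of nuclear genes for mitochondria, 2 were negative and 7 positive. Ppargc1a, which encodes PGC-1α, fell from 7.97, 8.92 and 10.2 CPM to 1.7998, 3.01 and 1.21 CPM (-2.17 ± 0.35, adjusted p = 0.011 by edgeR). On log2(FPKM + 1) its difference was -0.88, and the call was lost without the second ND or the first HFD library (adjusted p = 0.051 and 0.062 by edgeR). Myc rose from 11.5, 12.4 and 11.2 to 27.6, 14.1 and 32.0 CPM (1.07 ± 0.29, adjusted p = 0.047 by edgeR), with the second HFD library near the ND range, and the call held in 6 of 12 other settings. Nrf1, with ND libraries at 19.1, 18.99 and 19.5 CPM and HFD libraries at 21.5, 20.02 and 25.4 CPM, was at 0.22 ± 0.13 on the log2 scale (adjusted p = 0.297). Gabpa, the DNA-binding subunit of GABP, was at 50.6, 49.1 and 50.6 CPM on ND against 53.5, 50.7 and 55.2 CPM on HFD (0.08 ± 0.10, adjusted p = 0.581).

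Of the other called genes of these lists, the call held in 5 of 6 fits with a library left out for Hsd17b10, in 2 of 6 for Iars2, Ngrn and Tfam, and in 1 of 6 for Vars2, Ybey and Myc.

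The messages that the mitochondrial ribosome translates had larger fold changes than its proteins, a difference that was not tested. All 13 protein genes of the mitochondrial genome had every HFD library below every ND library, where 19.1% of all genes tested did. Their log2 fold changes ran from -1.44 to -0.56, and 7 were called lower (53.8%, beside 6.04% of all genes). The largest falls among the called genes were in mt-Co3 (-1.44 ± 0.18), mt-Atp6 (-1.30 ± 0.17) and mt-Co2 (-1.23 ± 0.19), subunits of cytochrome oxidase and ATP synthase (adjusted p = 0.0069, 0.0072 and 0.010 by edgeR). Their levels were low for this genome, with ND means of 31.5, 29.7 and 58.1 CPM, where mt-Co1 had 15788.5 CPM. Whether their reads were lost in the authors' counting was not tested. The other called genes, mt-Cytb, mt-Nd5, mt-Nd6 and mt-Nd4, had ND means from 1135 to 7815 CPM and log2 fold changes from -1.12 to -1.06. The 13 genes are cut from shared precursors, so they are not independent. The counts of the ribosomal RNA genes were not lower in this way. How far these counts follow the level of ribosomal RNA in the tissue, which library preparation can change, was not tested. mt-Rnr1 was at 249.4, 236.4 and 298.2 CPM on ND against 247.6, 307.0 and 225.8 CPM on HFD (-0.0068 ± 0.17), and mt-Rnr2 at 234.8, 208.1 and 265.7 CPM on ND against 298.0, 411.4 and 299.5 CPM on HFD (0.51 ± 0.18, adjusted p = 0.0996).

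The proteins of the cytosolic ribosome, encoded in the nucleus like the members, lay on the other side of 0. Of 78 tested genes 73 were positive and 5 negative, with a median log2 fold change of 0.22 and none called by edgeR. Over all 81 genes of the list the sums were 25414, 26886 and 28104 CPM on ND against 28810, 27823 and 35566 CPM on HFD. These sums overlapped between the diets, and the third HFD library was far above the others. In 25 of the 78 tested genes (beside 21.7% of all genes) every HFD library was above every ND library, and in 0 below (19.1% of all genes). The difference between the families was not tested.

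**Figure D4:**
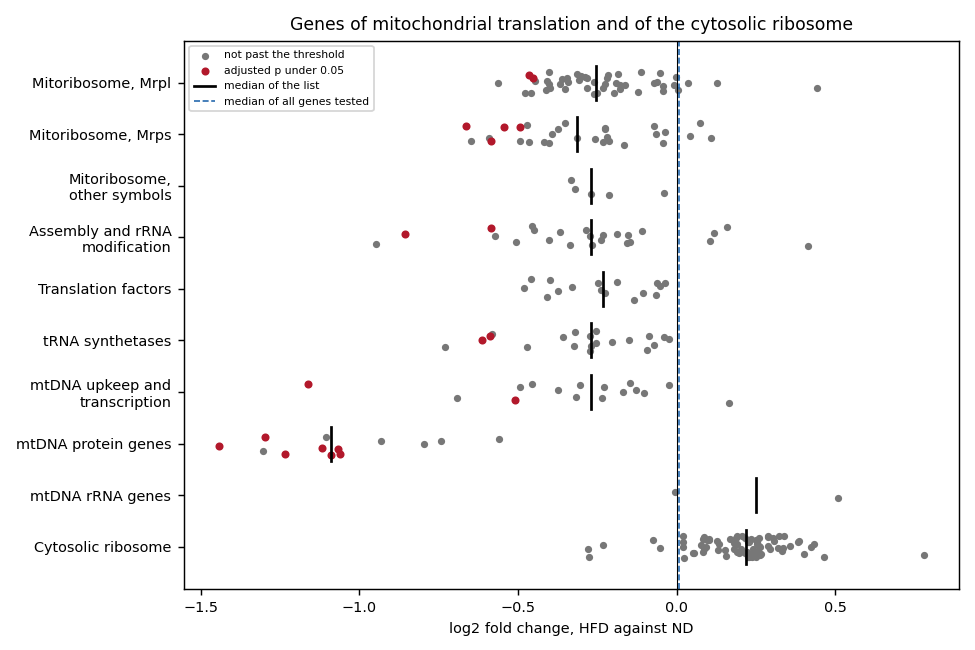
Log2 fold change of HFD against ND (x axis) for each tested gene of the mitochondrial ribosome, of the other lists of mitochondrial translation, of the mitochondrial genome and of the cytosolic ribosome (rows; each point a gene, spread vertically for visibility). Black bars are list medians, which lie between -0.32 and -0.23 for the nuclear-encoded mitochondrial lists, at -1.09 for the 13 mitochondrial protein genes and at 0.22 for the cytosolic ribosome.

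The motifs shown above were counted in the promoters of the members and in those of all genes, with no test of the difference. The NRF1 palindrome was present in 3 of 69 genes (4.35%), in 1.07% of all 27025 genes with a window and in 2.18% of the 11321 of those that were tested. Its shorter form GCATGCGC, which every full match contains, was in 8 (11.6%, 3.05% and 5.55%). The ETS word was in 12 (17.4%, 4.31% and 8.44%). The longer YY1 word was in 5 (7.25%, 0.755% and 1.63%) and its core AAGATGG in 13 (18.8%, 7.28% and 8.21%). Both strands were searched, and a match of letters does not show that a factor binds.

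No test was made of the difference between members with and without a match, and the medians were -0.25 for the 12 genes with the ETS word and -0.29 for the 56 tested without it, and -0.30 for the 8 with the shorter NRF1 word and -0.27 for the 60 without. The 3 genes with the full NRF1 palindrome, Mrpl9, Mrpl32 and Mrpl39, had a median of -0.45, with -0.26 for the 65 without it. Every HFD library was below every ND library in all 3, in 31 of the 65 and in 19.1% of all genes tested. The 13 with the YY1 core had a median of -0.39, and the 55 without of -0.23. With the longer YY1 word the medians were closer, at -0.32 for the 5 with it and -0.28 for the 63 without. Mrps16 and Mrps15, with the windows printed above, hold none of these words before the start.

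Many members share a start region with a neighbour that is transcribed the other way. Neighbours with too few counts to be tested were not counted. A tested protein-coding gene on the opposite strand started within 1000 bases upstream or 200 bases downstream of the start in 22 of 77 tested members (28.6%). The share was 10.3% among the 13711 protein-coding genes tested. No neighbour within this window was itself a member. Mrpl46 and Mrps11 overlap by 173 exon bases on opposite strands of chromosome 7. Mrpl46 starts at 78783531 and Mrps11 at 78783119. Each start lies downstream of the other by more than the 200 bases allowed, so this pair was not counted. The neighbours had 11 negative and 11 positive log2 fold changes with a median of 0.0008, whereas these 22 members had a median of -0.37. Mrpl51 starts 100 bases from Ncapd2, a condensin subunit, at 0.16 (adjusted p = 0.780). Mrps12 starts 172 bases from Sars2, the mitochondrial serine tRNA synthetase, at -0.09, and Mrpl49 starts 59 bases from Fau, which encodes a protein of the cytosolic ribosome, at 0.25. Of the 22 neighbours 2 were called higher and 1 lower, where 9.85% and 6.04% of all genes tested were. These counts do not set the neighbours apart. Called higher by edgeR were Gga3 beside Mrps7 (0.91, adjusted p = 0.021) and Pnpla7 beside Mrpl41 (0.70, adjusted p = 0.026). Ndufs6 beside Mrpl36 (-0.56), a subunit of respiratory complex I, was called lower (adjusted p = 0.023 by edgeR). Exons of Gga3 overlap those of Mrps7 by 127 bases and those of Ndufs6 overlap Mrpl36 by 30 bases.

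**Figure D5:**
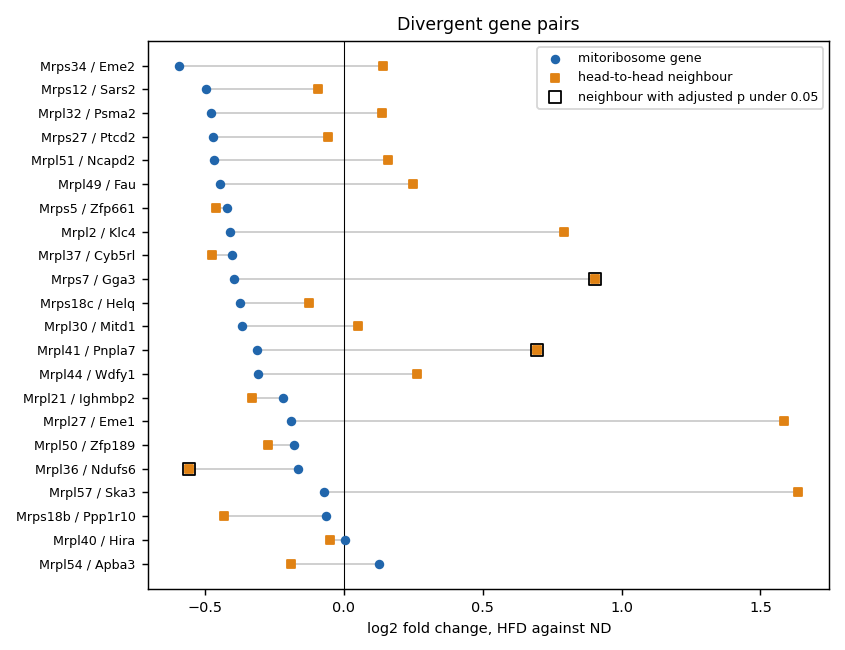
Log2 fold change of HFD against ND (x axis) for the 22 members with a tested head-to-head neighbour (circles) and for that neighbour (squares). Each row is 1 pair, and a black outline marks neighbours with an adjusted p under 0.05 by edgeR. Circles lie left of 0 in 20 of the pairs, and squares are split with 11 on each side.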

How the data were processed

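RNA-Seq libraries of epididymal fat, 3 per diet, were grouped by the diet in the labels. The study's methods name TopHat and Cufflinks for mapping to the mouse build GRCm38. The submitters' processing notes name HISAT2 2.0.5, featureCounts 1.5.0-p3 and a human build instead, and the gene identifiers are mouse. The authors deposited raw counts per gene, without normalization, and FPKM values that equal the count divided by a length and a library factor (checked on 11492 genes above 50 counts in all libraries). The library factor was within 1.07% of the TMM-scaled library size.

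Totals were 16996896 to 18859320 counts per library, and tested members had 173 to 2014 counts in a library. HFD was compared with ND in R 4.3.3 by the quasi-likelihood test of edgeR 4.0.16 (robust=TRUE, TMM, filterByExpr, Benjamini-Hochberg over 15751 genes, threshold 0.05). Standard errors were derived from the F statistic. No permutation test was made, because with 3 libraries against 3 its smallest p is 0.1. On simulated data the edgeR test recovered 140 of 200 changed genes among 15503 tested, with 15 false calls. The simulated log2 fold changes were larger in size than that of any member. The share recovered therefore does not measure how many changes as small as those of the members would be found. Alternatives used DESeq2 1.42.0, limma 3.58.1 (voom, and log2(FPKM + 1) or log2(FPKM + 0.1)), other scalings and filters, a replicate block and each library left out.

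Names, biotypes, exons and coordinates come from GENCODE M21, which held 54495 of 54532 identifiers, and promoters from RefSeq (GRCm38.p6). Rows of 5 pseudogenes, with 203 counts in all, were left out. The members, lists and tests were chosen with earlier results of these data known. Named genes were members past the threshold, the 5 highest and 3 lowest by FPKM, the 5 highest by log2 fold change, S18 paralogs, Mrps36, proteins of the stalk, exit tunnel, central protuberance and decoding centre, untested members, called genes of the other lists (at most 3 per direction) and Tfam, Nrf1, Gabpa and Ppargc1a. Same-numbered libraries are different mice, and their deviations from the group means were not correlated (r = -0.067, -0.039 and -0.0021 over genes).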

Additional observations from a re-analysis of the deposited data

How the results depend on the processing

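The median log2 fold change of the members was negative in each of the 18 alternatives, from -0.34 without the third ND library to -0.18 without the second, and 62 of 77 members were negative in all of them. No member was called higher in any. The count of members called lower, 6, depended on the settings: it was 12 with DESeq2, 10 with DESeq2's size factors, 2 without a filter, 0 with limma on unfiltered FPKM values, 1 with the replicate block, 3 among members without exon overlap (an alternative chosen after seeing the data), and 0 to 12 with a library left out (0 without the first or second ND or the first HFD library, 2 without the third ND, 3 without the third HFD and 12 without the second HFD library). The 2 of the large subunit became 5 with DESeq2, 4 with protein-coding genes only, library size only or DESeq2's size factors, 1 with voom or FPKM at either pseudocount, 0 without a filter, with unfiltered FPKM or with the block, and 0 to 5 with a library left out. The 4 of the small subunit became 7 with DESeq2, 2 without a filter, 0 with unfiltered FPKM, 1 with the block and 0 to 7 with a library left out. The 7 called lower in the other lists became 2 with unfiltered FPKM and 0 to 9 with a library left out, and the 1 called higher became 0 with voom, library size only, FPKM in all 3 forms and the block, and 0 to 2 with a library left out.

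The cause of these differences was not tested. The replicate numbers do not pair the samples. With the block 1886 genes were called in all, against 2503 without it, and 1693 by both. Among named genes, signs turned only for values near 0. Mrpl40 was -0.017 with DESeq2, -0.019 with its size factors, -0.0015 without a filter, -0.0031 with protein-coding genes and -0.012 with FPKM, and Mrpl23 was 0.0068 with voom and 0.0061 with the block. With a library left out Mrpl40 ranged from -0.0796 to 0.051, Mrpl23 from -0.11 to 0.10, Mrpl24 from -0.095 to 0.029, Mrpl34 from -0.17 to 0.11, Mrps36 from -0.16 to 0.012, Mrps22 from -0.13 to 0.23, Mrps25 from -0.022 to 0.16 and mt-Rnr1 from -0.14 to 0.0714. Of all comparisons of a named gene with an alternative, 766 kept direction and side of the threshold, 100 lost it, 23 gained it and 27 turned. Standard errors of 0.099 to 0.22 with 3 libraries per diet limit what single genes can show.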
